A study of Mus musculus with 16 samples.

Results

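Prnp, the mouse prion protein gene, its neighbour Prnd and the mouse tau gene Mapt are 3 genes tied by sequence, position or product to tau transgenes built in a prion gene vector. They were taken from the 24060 genes listed for each library by their symbols. The choice of these genes was made with earlier results of these data known. Each symbol has 1 row. Prnp and Mapt were above 0 in all 16 libraries, and Prnd was listed at 0 in every one, so 2 of the 3 genes passed the filter used for testing, a mean of at least 1 RPKM (reads assigned to a gene, per kilobase of its length and per 1e+06 reads of the library).

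The study measured cortical brain tissue from 16 mice of 8 to 9 months by 3' mRNA sequencing, in which a short stretch near the poly(A) end of each transcript is read. Its question was what partial and full loss of Trem2, a microglial receptor for lipids, does in a cortex with tau pathology. Each of 4 genotypes had 4 mice, 2 of each sex, and the strain label reads C57BL/6; C3. Controls had both alleles of Trem2 and lacked the tau transgene (TREM2+/+). The 3 tau genotypes carried the P301S tau transgene, with both alleles (P301S+ TREM2+/+), 1 allele (P301S+ TREM2+/-, here heterozygotes) or none (P301S+ TREM2-/-, here knockouts). No group carries a loss of Trem2 without the transgene, and the controls serve all 3 comparisons with tau mice. The labels name neither the tau line nor its promoter, nor do they say whether controls were littermates. The tables' symbols are mouse genes, and the human MAPT transcript itself was not analysed here.

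Prnp encodes the cellular prion protein, a glycoprotein held at the cell surface by a lipid anchor, made by neurons and also by glia. Prnd lies just downstream of it and encodes doppel, a relative of the prion protein that is made mainly in testis and little in adult brain. Mapt encodes tau, which binds axonal microtubules. As background, a widely used P301S line expresses a human tau cDNA from a mouse prion gene vector, which brings the Prnp promoter and noncoding Prnp sequence from both ends of the gene. In such a line reads of the vector's noncoding exons could be counted with Prnp, and the endogenous tau gene stays in place.

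Prnp lies on the plus strand of chromosome 2 from 131909928 to 131938429, and Prnd from 131950861 to 131956130 (GRCm38, GENCODE M21). The submitters' processing notes name mm10, the same build. Mapt lies on the plus strand of chromosome 11 from 104231390 to 104332090. The 3' end of Prnp is its last exon, 131936420 to 131938429, which holds the coding sequence and the poly(A) end that a 3' library reads. A readthrough gene, Prn, runs from the start of Prnp to the end of Prnd. It shares 97.2% of the exonic bases of Prnd (3122 of 3211) and 6.19% of those of Prnp (145 of 2343), and none of the 2010 bases of the last Prnp exon. The deposited values imply lengths of 3732 bases for Prnp and 5380 for Mapt, where the exons of GENCODE M21 give 2343 and 7531. Reads were therefore counted on other models of these genes, and the overlaps given here are those of GENCODE M21.

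The 250 bases before the start of Prnp and of Prnd are shown because a prion gene vector drives its insert from the first of them, while Prnd starts from a promoter of its own. Both are from RefSeq on GRCm38.p6, plus strand, and end at the base before the start. Capitals mark 3 kinds of motif, searched on both strands. The GC box was searched as GGGCGG. The CCAAT box was searched by the letters of its name. For the TATA box the letters were TATANA, with N for any base, and matches of the 3 kinds did not overlap each other. RefSeq's table held no Mapt entry.
Prnp, chr2:131909678-131909927: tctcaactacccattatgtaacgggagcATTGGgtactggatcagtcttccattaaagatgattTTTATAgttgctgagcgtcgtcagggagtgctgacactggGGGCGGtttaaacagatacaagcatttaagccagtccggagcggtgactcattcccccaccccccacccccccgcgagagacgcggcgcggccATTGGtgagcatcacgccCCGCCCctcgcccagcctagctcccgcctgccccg
Prnd, chr2:131950611-131950860: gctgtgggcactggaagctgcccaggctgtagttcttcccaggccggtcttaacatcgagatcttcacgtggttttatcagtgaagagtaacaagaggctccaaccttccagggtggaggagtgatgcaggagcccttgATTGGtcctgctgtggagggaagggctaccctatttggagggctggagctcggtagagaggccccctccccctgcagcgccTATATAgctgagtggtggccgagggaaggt
The Prnp window held 2 GC boxes, 146 and 35 bases before the start, and 2 CCAAT boxes on the minus strand, 222 and 53 bases before it. Its only TATA match lay on the minus strand 186 bases before the start. The Prnd window held no GC box, 1 CCAAT box and a TATA box 30 bases before the start, a palindrome that matches on both strands. GC boxes occurred in 32.7% of the 32851 windows of this length in the table, CCAAT boxes in 33.8% and TATA boxes in 22.6%. G and C made up 58.8% of the Prnp window and 58% of the Prnd window, beside a median of 52.4% over the table. These matches describe letters and show no binding.

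Read totals ran from 2.55 to 14.47 M per library (M, 1e+06 reads). Control replicate 3, a female, stood apart at -130.8 on the first principal component (52.4% of the variance), where no other library lay below -18.8, and its 50 most-read genes took 18.57% of reads against 12.97 to 15.05% elsewhere. Both P301S+ TREM2+/+ females stood apart on the second component, at -45.0 and -41.3 (14.6% of the variance). Prnp and Mapt are given below with and without control replicate 3 in every comparison with controls. This library was chosen to be left out with earlier results of these data known. Trem2 was at 14.3 to 34 RPKM in P301S+ TREM2+/+ libraries, 4.5 to 25.2 in heterozygotes, 1.44 to 3.75 in knockouts and 7.35 to 20.2 in controls, so the knockouts lay below every other library and heterozygotes overlapped P301S+ TREM2+/+. How much of Trem2 the knockout allele lacks was not stated, and 3' reads outside it would check nothing. Cortical neuron markers were present in all libraries, with Snap25, a synaptic fusion protein, at 419 to 1626 RPKM and the layer marker Tbr1 at 25.4 to 169. Control replicate 3 held the lowest value of both, and the highest of Slc17a7, a glutamate transporter of excitatory neurons (274 RPKM, where the lowest library had 64), and of the neuronal splicing gene Rbfox3 (95.8 and 45.2). Of the 5 blood genes, the 4 hemoglobin genes were listed at 0 in every library.

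Prnp was higher in every tau library than in every control. Control libraries were at 415, 350, 174 (replicate 3) and 326 RPKM. P301S+ TREM2+/+ libraries were at 864, 962, 807 and 830 RPKM. Heterozygotes were at 990, 894, 1120 and 733 RPKM. These libraries did not overlap the controls, and the heterozygotes held both the highest and the lowest tau value. Knockouts were at 859, 782, 991 and 998 RPKM. The lowest tau library, heterozygote replicate 4, stood 1.77-fold above the highest control, replicate 1.

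By genotype, Prnp averaged 316 ± 102 RPKM in controls, 866 ± 68.0 in P301S+ TREM2+/+ mice, 934 ± 163 in heterozygotes and 907 ± 105 in knockouts (SD, n = 4 each). The order from highest to lowest was heterozygotes, knockouts, P301S+ TREM2+/+ and controls. The first 3 did not differ beyond their spread, and only the step to the controls exceeded it. Without replicate 3 the controls averaged 364 ± 46.1 RPKM (SD, n = 3). The 12 tau libraries together averaged 902 ± 111 RPKM, a ratio of means of 2.85 to all controls and 2.48 without replicate 3. Reads of the endogenous gene and of a prion vector, if the line carries one, cannot be told apart in these values.

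**Figure D1:**
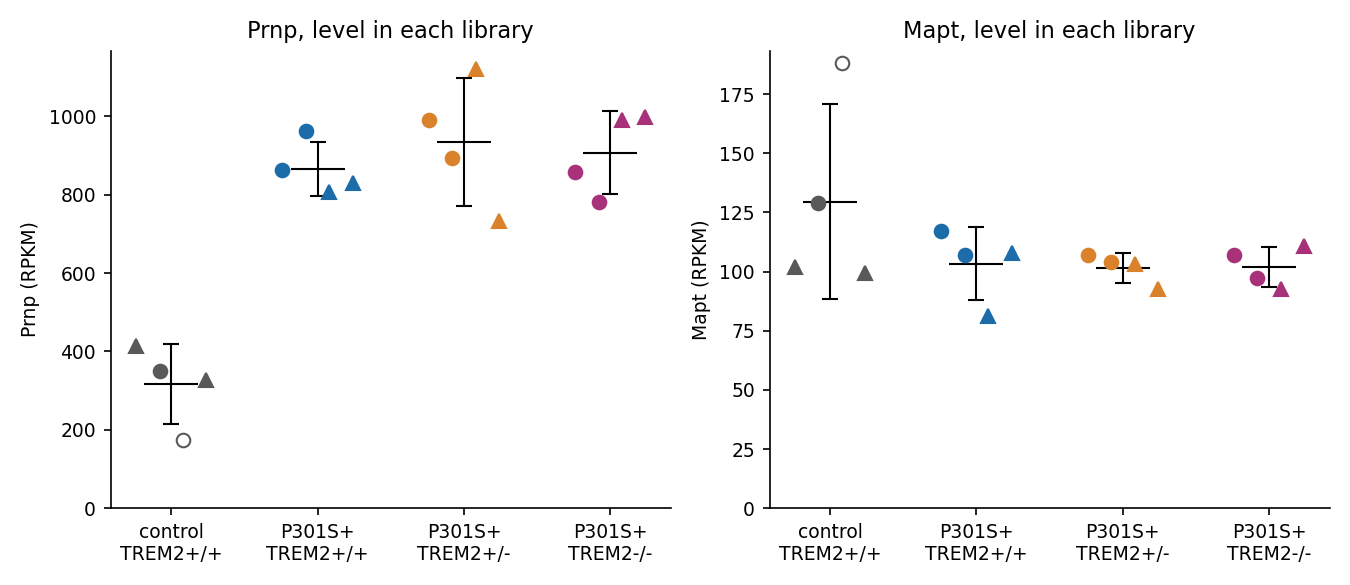
Prnp (left) and Mapt (right) in RPKM for each library, by genotype, with linear axes from 0. Circles are females, triangles males, the open circle is control replicate 3, and bars are the mean ± SD of 4 libraries. All 12 tau libraries lie at 733 RPKM or above for Prnp and all controls at 415 or below, while the genotypes overlap for Mapt.

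Prnp had 3394 to 18926 reads in control libraries and 7449 to 39259 in tau libraries. It took 0.118 ± 0.0381% of reads in controls (0.136 ± 0.0172% without replicate 3) and 0.337 ± 0.0416% in tau mice (SD, n = 4, 3 and 12). Ranked by reads, Prnp was between the 5th and 13th most-read gene in tau libraries. In controls it ranked 41st, 57th, 68th and, in replicate 3, 214th.

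Differences were tested with limma on log2(RPKM + 1) for 12015 genes, with Benjamini-Hochberg adjustment over all of them and a threshold of 0.05. Comparisons with control share the same 4 control libraries, so their values are set side by side and are not independent of each other. For all tau mice against control the Prnp difference was 1.57 (SE 0.19, 95% interval 1.16 to 1.98, adjusted p = 0.0113), higher in 12 of 12 tau libraries. Prnp was the only gene of 12015 called there, 0.00832% of those tested, and 1976 had an unadjusted p under 0.05. The call ended when control replicate 4 was left out (1.58, limma adjusted p = 0.097), and when genes under 1 RPKM were kept in (1.57, limma adjusted p = 0.0755).

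Taken genotype by genotype over all 16 libraries, Prnp ranked first by p but did not pass. In P301S+ TREM2+/+ against control, the P301S effect, the difference was 1.52 (SE 0.24, limma adjusted p = 0.171). In heterozygotes against control it was 1.61 (limma adjusted p = 0.0868), and in knockouts against control 1.58 (limma adjusted p = 0.109). No gene passed limma in these 3 comparisons, a background of 0%, although 1657, 1153 and 1167 had an unadjusted p under 0.05. Limma-voom on whole reads called 0, 1 and 1, and Prnp was its call in the latter pair (1.63 with adjusted p = 0.0421 and 1.59 with adjusted p = 0.0474).

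Without control replicate 3, Prnp was still higher in tau mice in all 4 comparisons with control, and again first by p in each. Each difference was smaller than over all 16 libraries, with a smaller adjusted p. The difference was 1.26 in the P301S effect (SE 0.15, limma adjusted p = 0.00891), where 5 of 11972 genes were called, 0.0418%. This call ended when both P301S+ TREM2+/+ females were left out as well (1.14, limma adjusted p = 0.373). In heterozygotes it was 1.35 (limma adjusted p = 0.00365), with 3 genes called, 0.0251%. In knockouts it was 1.32 (limma adjusted p = 0.00491), and Prnp was the only call, 0.00835%. For all tau mice it was 1.31 (SE 0.13, 95% interval 1.04 to 1.59, limma adjusted p = 0.00069), with 2 genes called, 0.0167%. The other was Mag, the myelin-associated glycoprotein of oligodendrocytes.

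**Figure D2:**
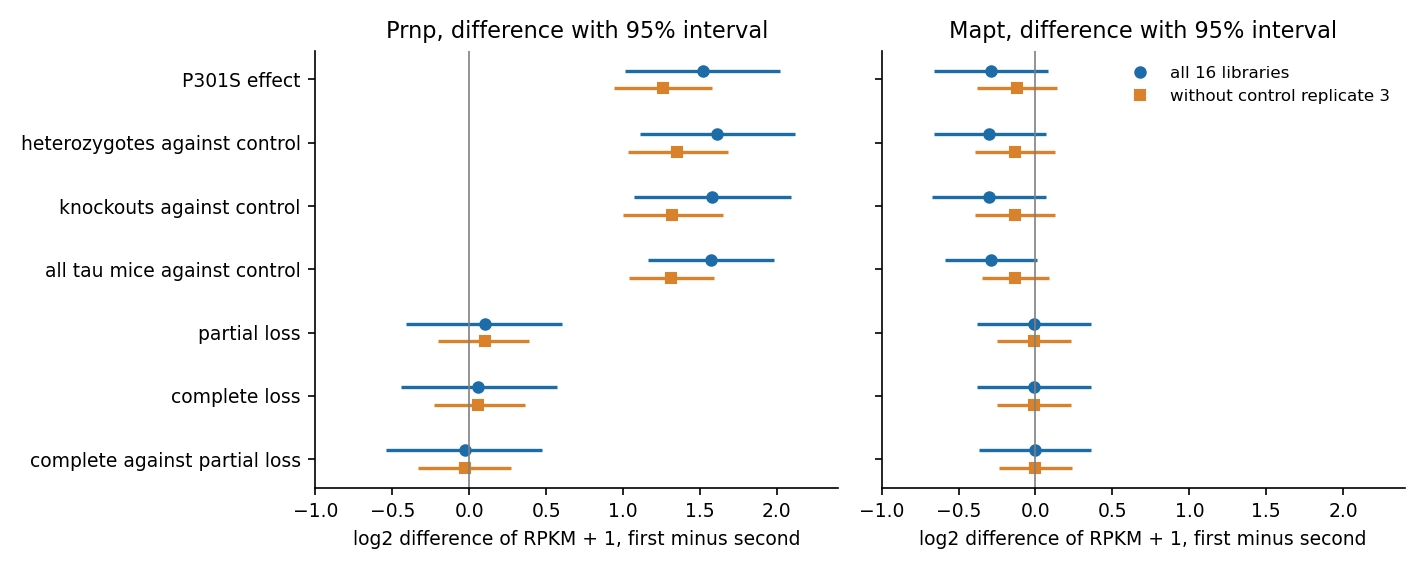
Log2 differences of RPKM + 1 for Prnp (left) and Mapt (right) in 7 comparisons, with 95% intervals from limma, over all 16 libraries (circles) and without control replicate 3 (squares). Prnp lies between 1.26 and 1.61 in the 4 comparisons with control, and both genes have intervals across 0 in the 3 comparisons among tau genotypes.

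Exact permutation tests on the libraries, two-sided, treated each value alone. With 4 against 4 libraries no p can fall under 0.029, and Prnp reached this value in each of the 3 genotypes (adjusted p = 0.083 over 35 tests of both genes and their ratios). With 12 against 4 the exact p was 0.00055 (adjusted p = 0.0064), and with 12 against 3 it was 0.0022 (exact permutation, adjusted p = 0.026). These are the smallest p-values that the designs allow.

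Among all genes, the separation of Prnp was compared as the gap between the lowest tau and the highest control library on the log2 scale. Over all 16 libraries 23 of 12015 genes, 0.191%, had every tau library above every control. The Prnp gap was 0.82 and ranked first. Next came Alpk1, an innate immune kinase, with a gap of 0.28 (0.821 RPKM in the lowest tau and 0.504 in the highest control library), and Tmem41a with 0.16. With control replicate 3 left out there were 49 such genes of 11972, 0.409%, and the next gap after Prnp was 0.33 for Mag. This pattern is a description, since the libraries are those of the test above.

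By p, the 3 genes after Prnp in the comparison of all tau mice were Ttyh2, a chloride channel gene, at 1.25 (SE 0.22), Alpk1 at 0.89 and the myelin protein gene Pmp22 at 0.91, none of which passed limma (adjusted p = 0.243 for each). With control replicate 3 left out they were at 0.94, 0.81 and 0.77, again short of the threshold (limma adjusted p = 0.122, 0.265 and 0.265). Ttyh2 averaged 9.52 RPKM in tau mice and 3.66 in controls. In heterozygotes against control the next after Prnp was Cd14, the lipopolysaccharide co-receptor, at 0.93 (limma adjusted p = 0.174, and 0.87 with adjusted p = 0.24 without replicate 3). In knockouts it was Oard1, an ADP-ribose hydrolase gene, at 0.98 (limma adjusted p = 0.441, and 0.82 with adjusted p = 0.307 without replicate 3). When control replicate 3 was left out, Flywch1 was called in P301S+ TREM2+/+ mice (1.11, limma adjusted p = 0.0186) and in heterozygotes (1.27, limma adjusted p = 0.00637). Mag was called in the same pair, at 0.86 and 0.92 (limma adjusted p = 0.0339 and 0.0208). The remaining calls in P301S+ TREM2+/+ mice were Ttyh2 at 1.24 (limma adjusted p = 0.0391) and the heat shock protein gene Hspa1b at -0.91 (limma adjusted p = 0.0186). Over all 16 libraries the last 2 were at 1.55 and -0.24 in that comparison (limma adjusted p = 0.251 and 0.818). Mag and Flywch1 were high in control replicate 3, and their control means went from 69.5 to 33.8 and from 20.8 to 11.9 RPKM without it. Hspa1b was low in that library, and its control mean went from 6.07 to 7.98 RPKM without it.

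**Figure D3:**
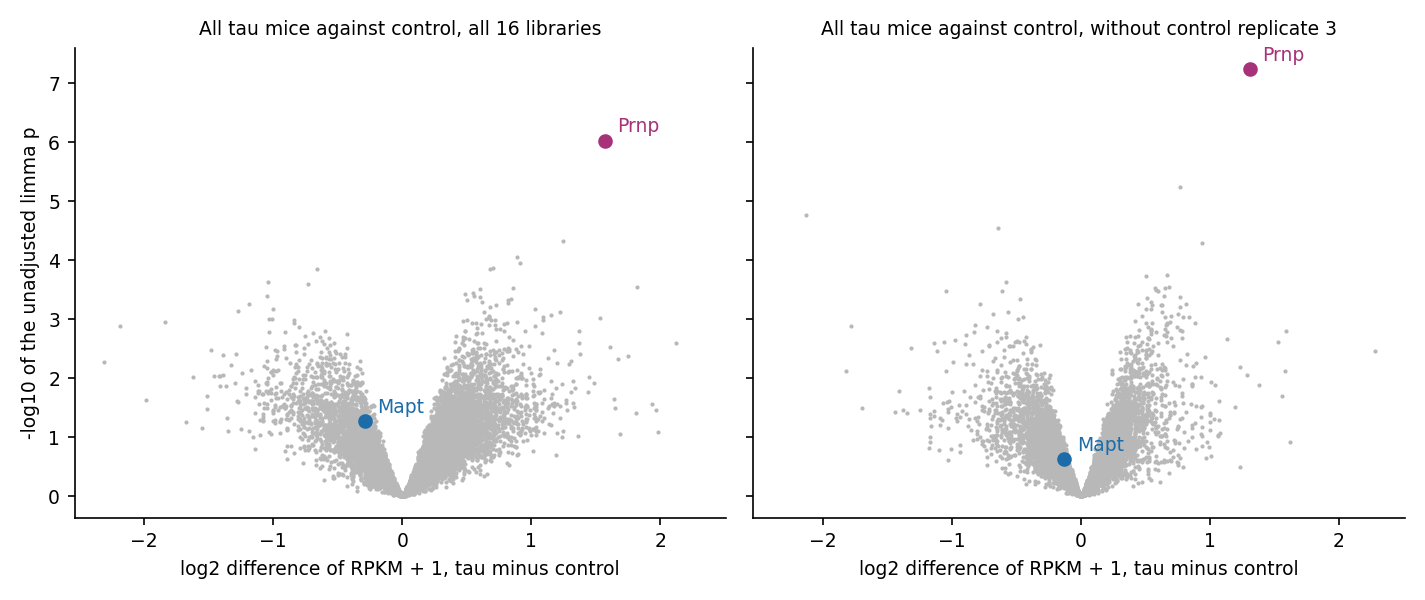
Each dot is 1 gene: log2 difference of RPKM + 1 between all tau mice and controls (x) against -log10 of the unadjusted limma p (y), for 12015 genes over all 16 libraries (left) and 11972 without control replicate 3 (right). Prnp is the highest dot in both panels, and Mapt lies within the cloud at -0.29 and -0.13.

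Loss of Trem2 was not accompanied by a detectable difference in Prnp among tau mice. The difference was 0.10 in heterozygotes against P301S+ TREM2+/+ (partial loss, 95% interval -0.41 to 0.60, limma adjusted p = 1). In knockouts against P301S+ TREM2+/+ (complete loss) it was 0.06 (-0.44 to 0.57, limma adjusted p = 0.945), and in knockouts against heterozygotes -0.03 (-0.54 to 0.47, limma adjusted p = 1). As fold changes the intervals run from 0.75 to 1.52, from 0.74 to 1.48 and from 0.69 to 1.39. Control replicate 3 enters these tests through the shared spread, and without it they narrowed to 0.87 to 1.31, 0.85 to 1.28 and 0.80 to 1.20. Differences inside these intervals are not excluded by these libraries.

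Over all 16 libraries limma called 0% of genes in partial loss and in complete against partial loss (324 and 411 at an unadjusted p under 0.05, and 0 in both by limma-voom). In complete loss it called 0.00832%, 1 gene, which was Trem2. Without control replicate 3 the shares were 0% (1231 at an unadjusted p under 0.05), 0.117% (14 genes) and 0.0167% (2 genes) for partial, complete and complete against partial loss, and neither Prnp nor Mapt was among them.

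Taken over both sexes, Mapt did not separate tau mice from controls. Control libraries were at 102, 129, 188 (replicate 3) and 99.4 RPKM. P301S+ TREM2+/+ libraries were at 117, 107, 81.2 and 108 RPKM. Heterozygotes were at 107, 104, 103 and 92.6 RPKM. One control, replicate 3, stood above all other libraries, and the remaining libraries of these genotypes overlapped. Knockouts were at 107, 97.1, 92.7 and 111 RPKM, again within the range of the other genotypes.

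Mapt averaged 130 ± 41.1 RPKM in controls, 103 ± 15.3 in P301S+ TREM2+/+ mice, 102 ± 6.38 in heterozygotes and 102 ± 8.42 in knockouts (SD, n = 4 each). Without replicate 3 the controls averaged 110 ± 16.1 RPKM (SD, n = 3). No step in this order exceeded the spread. The heterozygote and knockout means differed by 0.033 RPKM.

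For all tau mice against control the Mapt difference was -0.29 (SE 0.14, 95% interval -0.59 to 0.01, limma adjusted p = 0.307). The exact permutation test of the same difference gave p = 0.04 and an adjusted p of 0.11. Without control replicate 3 it was -0.13 (95% interval -0.35 to 0.09, limma adjusted p = 0.694), a ratio of means of 0.93. The interval leaves fold changes of 0.79 to 1.07. In the 3 genotypes against control it lay between -0.30 and -0.29 over all libraries and between -0.13 and -0.12 without replicate 3. In partial and in complete loss it was -0.01 each (95% interval -0.38 to 0.36, limma adjusted p = 1 and 0.992). A fold change outside 0.77 to 1.28 lies beyond these intervals. If reads of a human tau cDNA were counted with mouse Mapt, they would be part of these values, and that was not tested.

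The ratio of Prnp to Mapt within a library does not depend on how that library was scaled. Because 3' reads do not grow with gene length and RPKM divides by it, only the change of this ratio is compared here and not its size. It was 4.06, 2.72, 0.925 (replicate 3) and 3.28 in controls and ran from 7.41 to 10.8 in tau libraries. Tau mice averaged 8.86 ± 1.15 (SD, n = 12) and controls 2.75 ± 1.33 (n = 4), or 3.35 ± 0.670 without replicate 3 (n = 3). The groups did not overlap. Prnp alone already separated them, so the exact test of the ratio is not independent of that of Prnp. On the log2 scale the difference was 1.87 (exact permutation p = 0.00055, adjusted p = 0.0064), and without control replicate 3 it was 1.41 (exact permutation p = 0.0022, adjusted p = 0.026). Among tau genotypes it was 0.10, 0.07 and -0.03 (exact permutation p from 0.49 to 0.8).

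Both genes were also set against 12 neuron genes fixed as markers, since fewer neurons and less RNA per neuron cannot be told apart in bulk tissue. The mean log2(RPKM + 1) of these genes was 7.83 ± 0.0845 in controls and 7.71 ± 0.125 in tau mice (SD, n = 4 and 12). Relative to that mean Prnp lay at 0.86, 0.56, -0.42 (replicate 3) and 0.64 in controls and at 1.89 to 2.54 in tau libraries. P301S+ TREM2+/+ libraries were the tightest, at 1.94 to 2.05. The exact test of this measure uses the same Prnp values as that of Prnp alone and is not independent of it. The difference between all tau mice and controls was 1.70 (exact permutation p = 0.00055, adjusted p = 0.0064), and 1.42 without replicate 3 (exact permutation p = 0.0022, adjusted p = 0.026). For Mapt it was -0.17 (exact permutation p = 0.19) and turned to 0.01 without replicate 3 (exact permutation p = 0.89).

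**Figure D4:**
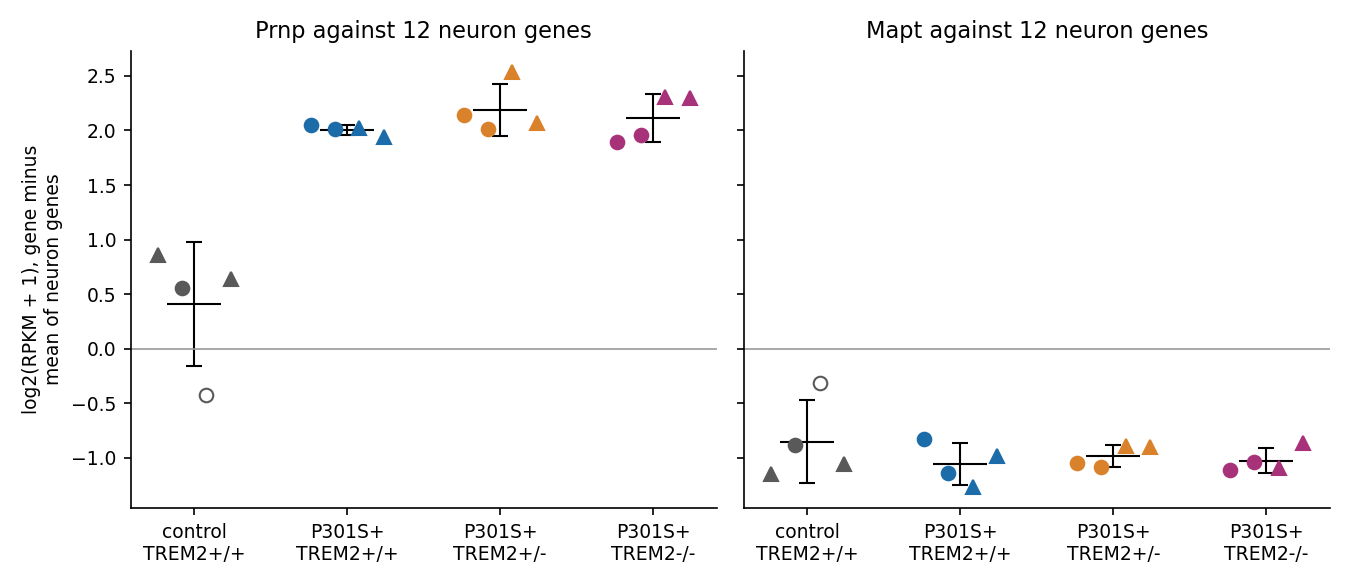
Log2(RPKM + 1) of Prnp (left) and Mapt (right) less the mean of 12 neuron genes in the same library, by genotype, with symbols and bars as in the plot of levels. Tau libraries lie at 1.89 or above for Prnp and controls at 0.86 or below, while Mapt averages -1.02 in tau mice and -0.85 in controls.

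In both sexes every tau library lay above every control for Prnp, which follows from the separation over all libraries and adds nothing to it. Control females were at 174 (replicate 3) and 350 RPKM and tau females at 782 to 990. Control males were at 326 and 415 RPKM and tau males at 733 to 1120. The order among tau genotypes was not shared, since female knockouts (782 to 859 RPKM) lay below the other tau females and male knockouts (991 to 998) above P301S+ TREM2+/+ males (807 to 830). Over all libraries the tau against control difference was 1.85 in females (limma adjusted p = 0.0355, with 12 of 12015 genes called). In males it was 1.30 and was not called (limma adjusted p = 0.75, with 0 genes called). It was larger by 0.55 in females (limma interaction, adjusted p = 0.4). Leaving out control replicate 3 leaves 1 control female, assumed to vary like the other groups. The difference was then 1.34 in females and 1.30 in males, larger by 0.045 in females. For Mapt both control females, at 129 and 188 RPKM (replicate 3), lay above all tau females, at 97.1 to 117. Control males (99.4 and 102) lay within the range of tau males (81.2 to 111). How many of all genes separate within a sex was not computed. The Mapt difference was -0.54 in females (limma adjusted p = 0.076) and -0.05 in males. The female difference was lower by 0.50 than the male one (-0.50, limma adjusted p = 0.314). With that single control female it was -0.27, lower by 0.23 than the male one (-0.23).

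Prnd and the readthrough gene Prn were listed at 0 in all 16 libraries, while 354399 reads over the series were assigned to Prnp. A count of 0 allows up to 3 reads, which is 0.207 to 1.18 reads per 1e+06 depending on the library, and this covers counting error only. In GENCODE M21 nearly all exonic bases of Prnd also belong to Prn, though the models used for counting differed for Prnp and Mapt. The sources used here do not give how reads over both genes were counted. Absence of Prnd transcript and reads set aside for overlapping 2 genes therefore cannot be told apart. No fold change was computed for Prnd.

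No gene beside Prnp on chromosome 2 was called, where limma called 0.00832% of all genes over 16 libraries and 0.0167% without control replicate 3. At these shares so few genes would rarely hold a call. Of the 5 nearest genes listed on each side, 6 of 10 were tested in the comparison of all tau mice, with and without control replicate 3. Upstream, Smox, the spermine oxidase gene, was at 23.1 ± 4.01 RPKM in tau mice and 17.4 ± 3.58 in controls (difference 0.39, SE 0.14, limma adjusted p = 0.284). The ubiquitin ligase gene Rnf24 was at -0.26 and the adrenergic receptor gene Adra1d at -0.09. Downstream, Rassf2 was at 0.14, the vitamin C transporter gene Slc23a2 at 0.48 and Tmem230 at 0.66 (limma adjusted p from 0.334 to 0.774). These last 3 moved to -0.20, -0.08 and 0.00 without control replicate 3. The others, 5330413P13Rik, Erv3, Prn and Prnd, averaged at most 0.351 RPKM in either group and lay under the filter.

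Around Mapt on chromosome 11, 6 of the 10 nearest genes were tested and none was called, beside 0.00832% of all genes (0.0167% without control replicate 3). They were Nsf, which takes apart spent fusion complexes at synapses, at -0.11, the small GTPase gene Arf2 at -0.28, the stress hormone receptor gene Crhr1 at -0.12, the chromatin gene Kansl1 at -0.24, the cell cycle gene Cdc27 at 0.22 and Myl4 at 0.49 (limma adjusted p from 0.427 to 0.755). Mapt was at -0.29. When control replicate 3 was left out Arf2 turned to 0.05, Cdc27 to -0.08 and Myl4 to -0.28, and Nsf, Crhr1 and Kansl1 were at -0.28, -0.01 and -0.27, with Mapt at -0.13. Wnt3, Sppl2c, Itgb3 and Efcab3 averaged under 1 RPKM and were not tested.

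**Figure D5:**
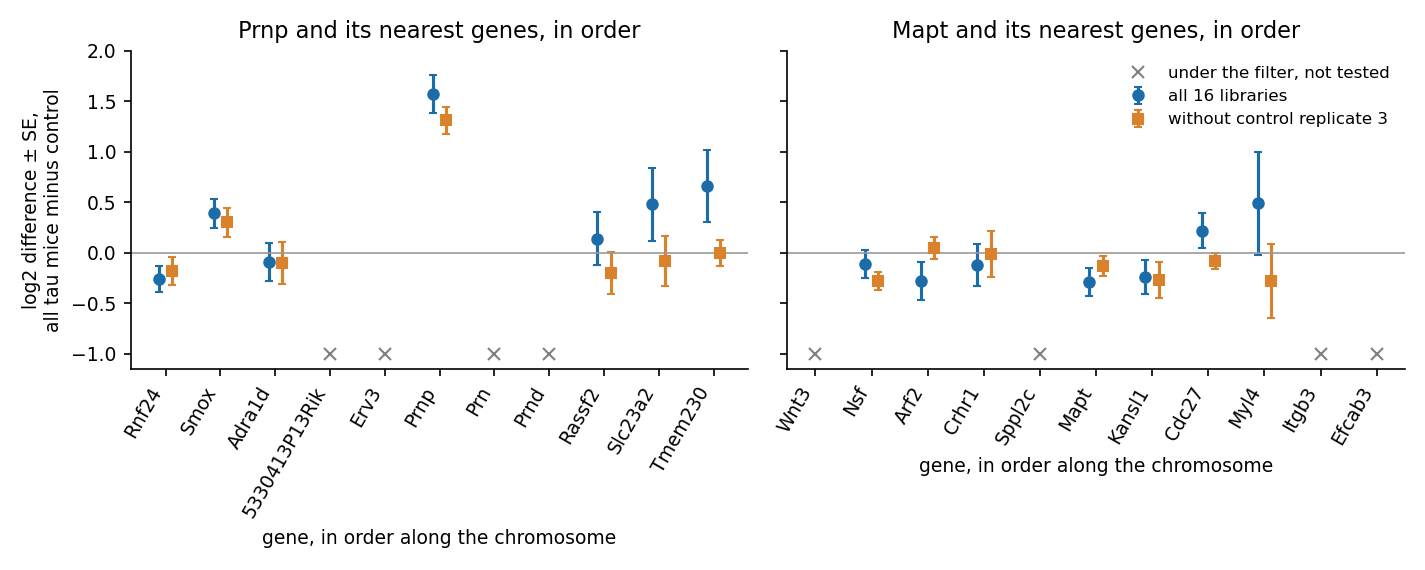
Log2 difference of RPKM + 1 between all tau mice and controls, ± SE from limma, for Prnp (left), Mapt (right) and the 5 nearest listed genes on each side in chromosomal order, over all 16 libraries (circles) and without control replicate 3 (squares). Crosses are genes under the filter. Prnp, at 1.57 and 1.31, is the only point above 1.

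Genes that act with the prion protein showed no called change, beside 0.00832% of all genes called (0.0167% without control replicate 3). The list held partners and relatives, such as the shadoo gene Sprn, the co-chaperone Stip1, the adhesion molecule Ncam1, the kinase Fyn and the sheddase Adam10, and 10 of its 11 genes were listed and tested. In all tau mice against control 6 of 10 were positive with a median of 0.07, which equals the median of all genes. The median was -0.08 without control replicate 3, with 0.01 over all genes. Stip1 was at 39 ± 5.82 RPKM in tau mice and 108 ± 128 in controls, or 43.9 ± 6.76 without replicate 3 (difference -0.86, limma adjusted p = 0.284, and -0.20 without replicate 3). Dpp6, a potassium channel subunit gene, was at 11.5 ± 1.93 and 35.5 ± 44.4 RPKM (difference -0.91, limma adjusted p = 0.284). Its control mean was 13.3 ± 3.14 RPKM without replicate 3. Control replicate 3 raised the control mean of both genes.

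A list of other microtubule-associated protein genes, Map2, Map4, Map1a, Map1b and Map6, held no called gene either, beside 0.00832% of all genes. All 5 were tested, with a median of -0.03 over all libraries and -0.04 without control replicate 3. Map6, a stabiliser of microtubules, was at 10.2 ± 1.39 RPKM in tau mice and 20.4 ± 16.3 in controls (difference -0.69, limma adjusted p = 0.284). Map1a, of axons and dendrites, was at 40.8 ± 8.75 and 67.6 ± 56.3 RPKM (-0.45, limma adjusted p = 0.349). Without replicate 3 the controls of these genes averaged 12.3 ± 2.17 and 39.7 ± 9.78 RPKM.

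Kinases, the phosphatase and chaperones that act on tau formed a list of 16 genes, all tested. None was called, beside 0.00832% of all genes. The list median was -0.16, and -0.04 without control replicate 3, when 15 stayed above the filter. The smallest p-values belonged to the chaperone gene Hspa8 at -0.93 (51.7 ± 20.1 RPKM in tau mice, 116 ± 85 in controls) and the tau-tubulin kinase gene Ttbk1 at -0.56 (1 ± 0.159 and 2.45 ± 2.51 RPKM, limma adjusted p = 0.284 for each). They were at -0.59 and -0.16 without control replicate 3 (limma adjusted p = 0.627 and 0.68). In partial and in complete loss no gene of these 3 lists was called, and list medians lay between -0.10 and 0.08. The shares of all genes called there were 0% and 0.00832% over all 16 libraries.

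List medians of cell type markers lay on both sides of 0. In all tau mice against control the list medians were -0.29 for excitatory neurons, 0.17 for inhibitory neurons, -0.18 for the 12 neuron genes, 0.30 for astrocytes, 0.47 for oligodendrocytes, 0.34 for microglia and -0.20 for endothelium and mural cells, beside 0.07 for all genes. No gene of these lists was called over all 16 libraries, beside 0.00832% of all genes. Without control replicate 3 Mag was the only one (0.77, SE 0.11, limma adjusted p = 0.0339), and the excitatory and oligodendrocyte medians were -0.54 and 0.51, with 0 of 6 and 6 of 6 genes positive. The other medians were then 0.10 for inhibitory neurons, -0.12 for the 12 neuron genes and 0.30 for astrocytes. They were 0.45 for microglia (6 of 6 genes positive) and -0.09 for endothelium and mural cells, beside 0.01 for all genes. The median of striatum markers was above all of these, at 0.62 without replicate 3 (3 of 4 tested genes positive) and 0.51 over all 16 libraries. Camk2a, a kinase of excitatory neurons, was at 255 ± 49.8 RPKM in tau mice and 604 ± 443 in controls (-1.01, limma adjusted p = 0.27), or 392 ± 154 without replicate 3 (-0.65, limma adjusted p = 0.302). Mog, a myelin protein gene, was at 38.5 ± 6.86 and 19.4 ± 10.1 RPKM over all libraries (1.15, limma adjusted p = 0.27), and its controls at 24.1 ± 4.49 without replicate 3 (0.68, limma adjusted p = 0.265).

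Summed over 6 oligodendrocyte markers, libraries ran from 439 to 609 RPKM in controls, with replicate 3 lowest, and from 569 to 801, 667 to 807 and 689 to 1012 in P301S+ TREM2+/+ mice, heterozygotes and knockouts. The heterozygotes and knockouts lay above all controls, and P301S+ TREM2+/+ mice overlapped them. The 6 astrocyte markers summed to 439 to 676 RPKM in controls, again with replicate 3 lowest, and to 716 to 898, 693 to 948 and 604 to 865 in the 3 tau genotypes. Here P301S+ TREM2+/+ mice and heterozygotes lay above all controls, and knockouts overlapped them. Most of this sum is Slc1a2, at a mean of 521 RPKM in tau mice and 367 in controls. How many of all genes separate single genotypes from controls in this way was not computed. The separations of the astrocyte and oligodendrocyte sums are therefore descriptions only. The sum of the 6 excitatory markers ran from 684 to 1597 RPKM in controls (684 to 1039 without replicate 3). In tau libraries it ran from 354 to 891, lower but overlapping the controls. Camk2a, at a mean of 604 RPKM in controls, makes up a large part of this sum. Over all libraries 2 of the 6 genes were higher in tau mice, and 0 of 6 without replicate 3. Striatum markers ran from 228 to 971 RPKM in controls and from 220 to 1740 in tau libraries, and choroid plexus markers from 110 to 528 and from 68.2 to 1773. The part of cell type makeup and dissection in the Prnp difference was not tested.

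Likeness to Prnp and to Mapt was measured as Pearson r of log2(RPKM + 1) over libraries, as a description, with genotype and the library that stands apart shared by all points. Over 16 libraries the genes most like Prnp were Pacs2 and Mog (r = 0.89 each), Ttyh2 (0.88), Rptor and Tle4 (0.87 each). Without control replicate 3 they were Safb2 (0.85), Mag (0.84), Pip4k2a (0.83), Alpk1 and Lst1 (0.82 each), so no gene was in both sets of 5. For Mapt the first 5 over 16 libraries were Kcna6, a potassium channel gene (0.98), the calcium channel subunit gene Cacnb1 and the Golgi gene Golga2 (0.97 each), the glycolytic enzyme gene Pfkl and the adhesion gene Cadm3 (0.96 each). Kcna6 (0.92), Cacnb1 (0.91) and Pfkl (0.89) stayed among the first 5 over 15 libraries, with Mras (0.90) and Zfp523 (0.89). Prnp and Mapt had r = -0.64 over 16 libraries, -0.18 over 15 and 0.37 over the 12 tau libraries. The negative value was closer to 0 without control replicate 3.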

How the data were processed

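Per the labels' protocols, RNeasy-purified RNA was used for Lexogen QuantSeq 3' libraries, read on a HiSeq4000. The submitters' processing notes list the build mm10 and the tools STAR, HTSeq, edgeR and limma, giving no version, role or order. The deposited values behave as RPKM: within a gene they are whole multiples of 1 read, and recovered reads sum to each library's total (100.0% of genes above 0 whole, tolerance 1e-05 reads or a relative 3e-07). The sources used here do not give the strand setting, so antisense reads cannot be separated. The 1 line without a gene name in each file was dropped.

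Groups came from the sample descriptions, sex from its label, and replicate numbers only name libraries. Where nothing says how mice were bred or handled, p-values measure the spread between these libraries. None of the 120 pairs of libraries was identical. limma 3.58.1 (R 4.3.3, trend) was fitted on log2(RPKM + 1) for genes with a mean of at least 1 RPKM, with genotype and additive sex (11 residual degrees of freedom, 7 comparisons), which understates changes of low genes. The limma script was tested on simulated data whose spread was taken without control replicate 3. The simulation does not cover the spread with that library. Read numbers bound counting error only. Named were the 3 genes, in each list the genes called or else the 2 with the smallest p, the 5 genes most alike, the 5 nearest on each side and at most 3 ranked next to Prnp. Genes, lists and the library left out were chosen with earlier results of these data known. Alternatives covered pseudocounts, filters, scaling, weights, voom and each library left out.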

Additional observations from a re-analysis of the deposited data

Results flagged for a closer look

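Trem2, Prnp and Mapt were among the values checked in every genotype for a library far from the other 3. Of 24 groups of values 1 was flagged, where chance alone flags about 1 in 20. Knockout replicate 4 stood apart from the other knockouts, at 3.75 RPKM against 1.44 to 1.71, from 29 reads. Its Prnp (998 RPKM) and Mapt (111 RPKM) did not stand apart from the other knockouts.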

How the results depend on the processing

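For Prnp the direction in the 4 comparisons with control held under all 11 other settings and with each of the 16 libraries left out. For all tau mice the call ended with no filter on low values (1.57) and without control replicate 4, and with single libraries left out the difference ran from 1.31 to 1.71. Array weights, which weighted control replicate 3 at 0.04, put the P301S effect on Prnp past the threshold (1.32), as they did heterozygotes (1.35) and knockouts against control (1.37). Heterozygotes and knockouts also passed with quantile normalization (1.63 and 1.64), limma-voom on whole reads (1.63 and 1.59) and without the 3 libraries that stand apart, control replicate 3 and both P301S+ TREM2+/+ females, a setting chosen after seeing the data (1.37 and 1.33). In that last setting, which leaves 2 P301S+ TREM2+/+ libraries, the P301S effect was 1.14 (limma adjusted p = 0.373), so its call without control replicate 3 alone (1.26) was not kept. With single libraries left out the 3 genotypes ran from 1.26 to 1.66, 1.35 to 1.76 and 1.32 to 1.72, and only the removal of control replicate 3 took any past the threshold.

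Mapt was not called in any comparison under any setting. Against control it stayed negative. Values near 0 changed sign among tau genotypes: for Prnp in complete against partial loss with array weights (0.03) and quantile normalization (0.01). For Mapt this occurred in partial loss with quantile normalization (0.02) and without the 3 libraries (0.05), in complete loss with array weights (0.0046), median-of-ratios scaling (0.01), quantile normalization (0.0035) and without the 3 libraries (0.05), and in complete against partial loss with array weights (0.03) and median-of-ratios scaling (0.02). With single libraries left out, Prnp ran from -0.0011 to 0.15 in complete loss and from -0.18 to 0.04 in complete against partial loss, and Mapt from -0.08 to 0.07, -0.10 to 0.06 and -0.09 to 0.07 in partial, complete and complete against partial loss. The ratio of Prnp to Mapt ran from -0.01 to 0.15 and from -0.12 to 0.05 in the last pair, and Prnp against neuron genes from -0.14 to 0.04 in complete against partial loss. Mapt against neuron genes ran from -0.04 to 0.11 in complete loss, and from -0.23 to 0.05, -0.27 to 0.01 and -0.27 to 0.01 in heterozygotes, knockouts and all tau mice against control.

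Numbers of genes called moved more than these genes did. Array weights called 197 in the P301S effect, 131 in heterozygotes, 4 in knockouts, 29 in all tau mice against control, 690 in complete loss and 5 in complete against partial loss. Without the 3 libraries these were 5 in heterozygotes, 1 in knockouts, 2 in all tau mice, 0 in complete loss and 44 in complete against partial loss. Quantile normalization and limma-voom called 1 each in heterozygotes and in knockouts. All tau mice gave 0 with no filter, and complete loss gave 0 with no filter, with pseudocount 5 or with limma-voom, and 7 when only the groups compared were fitted, a fit that gave 1 in complete against partial loss. With single libraries left out the numbers ran from 0 to 5, 0 to 3, 0 to 1 and 0 to 2 in the 4 comparisons with control in the order above, 0 to 14 in complete loss and 0 to 2 in complete against partial loss. The cause of these changes was not tested.

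Prnd gives no value under any setting. No paired analysis was possible because the labels give no replicate numbers shared between genotypes.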
